A study of Mus musculus with 18 samples.

Results

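The transcripts described here encode nuclear subunits of respiratory complex I, those of its assembly factors that have Nduf symbols, and the whole of complex II. Ndufa4 and its paralogue Ndufa4l2 are included through their symbols. All genes were chosen by name: every protein-coding mouse gene whose symbol begins with Nduf, and Sdha, Sdhb, Sdhc and Sdhd. This gave 50 genes, 46 Nduf and 4 Sdh, of 55469 gene IDs measured. The ventral and lateral lobes of the prostate of male mice were sequenced as total RNA, with 3 mice in each of 6 groups, 18 libraries in all. Every mouse carried 1 allele of TRAMP (TRAMP +/-), a transgene that makes the large-T and small-t antigens of SV40 under the Pb promoter, which is active in prostate epithelium, and the strain is given as C56NL/6N. WT-TRAMP mice were ELAC2+/+. KO-TRAMP mice were ELAC2-/-, made with Pb-Cre, so that Elac2 was deleted in the epithelium alone and other cells of the lobes kept it. A537T-TRAMP mice were homozygous for the ELAC2A537T change, which was introduced by CRISPR and is present in every cell of the body. Each line was sampled at 10 and at 30 weeks of age. ELAC2 is the nuclease that trims the 3′ ends of precursor tRNAs in the nucleus and in mitochondria. The comparisons ask whether its loss or its variant altered the nuclear transcripts of the complexes that pass electrons from NADH and succinate to ubiquinone.

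Complex I oxidises NADH in its matrix arm and passes the electrons through a flavin and a chain of iron-sulphur clusters to ubiquinone, while its membrane arm pumps protons. Its catalytic core is split between genomes: the core subunits of the membrane arm are encoded by mitochondrial DNA, whereas those of the matrix arm are encoded in the nucleus with a large set of accessory subunits and assembly factors. Complex II, succinate dehydrogenase, is an enzyme of the tricarboxylic acid cycle as well as of the respiratory chain, pumps no protons, and is encoded by nuclear genes alone. It therefore stands beside complex I as a respiratory enzyme that has no subunit made by mitochondrial ribosomes. The genes fell into 7 core subunits, 9 accessory subunits of the matrix arm, 9 of the proximal membrane arm, 10 of the distal membrane arm, the acyl carrier protein Ndufab1, 8 assembly factors (Ndufaf1 to Ndufaf8), Ndufa4 with its paralogue Ndufa4l2, and the 4 complex II subunits.

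Depth ran from 9380174 to 14830104 recovered reads a library. Values are normalized counts, meaning estimated reads divided by a size factor that was set separately in each table of 6 libraries, so that levels were compared only within a table. A library is called by the number in the header of its column. Fold changes are differences of log2(normalized count + 1), mutant minus WT-TRAMP, given with the standard error (SE), and p-values were adjusted in limma over all genes tested, after Benjamini and Hochberg. These p-values weigh a group difference against a spread that was estimated from only 3 mice a group and drawn towards that of genes of similar level. Elac2, measured over the whole gene, was 359, 289 and 307 in WT-TRAMP and 301, 262 and 254 in KO-TRAMP at 10 weeks, and 251, 320 and 310 against 249, 267 and 251 at 30 weeks. The groups overlapped at both ages, and a count over the whole gene does not test the removal of a single exon in the epithelium.

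Promoter windows that RefSeq places from 250 bases before to 50 bases after a gene's start (GRCm38.p6) were found for 43 of the 50 genes. Windows were read for 4 motifs that are known from genes of respiration, on both strands: CCGGAAG (ETS-type), GCATGCGC (NRF1-type), ATGGCGGC (YY1-type) and TGACGTCA (CRE), which share no letters with one another in the windows printed here. An ETS-type motif was present for 8 of the 43 genes (18.6%, against 9.93% of 27025 genes with a window), an NRF1-type motif for 6 (against 3.05% of all genes), a YY1-type motif for 7 (16.3% against 2.61%) and a CRE for 3 (6.98% against 2.03%). At least 1 of the 4 was found for 21 genes (48.8% against 15.7% of all genes). The windows of these genes had a median GC content of 59.67%, against 52.67% over all windows. The ETS-type, NRF1-type and YY1-type motifs are themselves rich in G and C, whereas the CRE is not. A match is a stretch of letters and not a measured binding site. The 5 windows below belong to the genes on which the later comparisons turn: Ndufb7 and Sdhd, with the largest fold changes of complex I and complex II in 30-week KO-TRAMP, Ndufa8, with the smallest p there, Sdhb, the iron-sulphur subunit of complex II, and Ndufs7, the gene with the lowest fold change. Capitals mark the motif. Ndufb7 is on the plus strand at chr8:83566508-83566807, and its ETS-type motif begins 20 bases before the start. Sdhd is on the minus strand at chr9:50603800-50604099, with the ETS-type motif as its reverse complement, CTTCCGG. Ndufa8 is on the minus strand at chr2:36049289-36049588, with an NRF1-type motif that begins 8 bases before the start. Sdhb is on the plus strand at chr4:140961021-140961320 and holds both an NRF1-type and an ETS-type motif. Ndufs7 is on the plus strand at chr10:80249199-80249498, with a YY1-type motif after the start.
Ndufb7: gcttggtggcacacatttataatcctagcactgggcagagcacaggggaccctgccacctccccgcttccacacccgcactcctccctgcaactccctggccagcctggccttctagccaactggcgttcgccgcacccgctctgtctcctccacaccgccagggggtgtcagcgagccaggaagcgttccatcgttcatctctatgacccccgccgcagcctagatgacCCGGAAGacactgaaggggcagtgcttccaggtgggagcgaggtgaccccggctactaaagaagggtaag
Sdhd: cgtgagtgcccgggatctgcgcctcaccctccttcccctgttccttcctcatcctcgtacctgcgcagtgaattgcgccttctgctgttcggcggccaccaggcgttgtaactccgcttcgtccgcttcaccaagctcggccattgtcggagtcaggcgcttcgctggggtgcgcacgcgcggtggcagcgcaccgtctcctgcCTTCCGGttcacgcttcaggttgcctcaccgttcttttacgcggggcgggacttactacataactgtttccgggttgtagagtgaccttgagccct
Ndufa8: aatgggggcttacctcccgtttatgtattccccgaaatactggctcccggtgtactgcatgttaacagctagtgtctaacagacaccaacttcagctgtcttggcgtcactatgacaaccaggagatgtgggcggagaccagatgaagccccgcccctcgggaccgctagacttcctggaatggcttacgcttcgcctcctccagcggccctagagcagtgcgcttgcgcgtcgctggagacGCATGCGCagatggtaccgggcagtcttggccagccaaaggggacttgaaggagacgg
Sdhb: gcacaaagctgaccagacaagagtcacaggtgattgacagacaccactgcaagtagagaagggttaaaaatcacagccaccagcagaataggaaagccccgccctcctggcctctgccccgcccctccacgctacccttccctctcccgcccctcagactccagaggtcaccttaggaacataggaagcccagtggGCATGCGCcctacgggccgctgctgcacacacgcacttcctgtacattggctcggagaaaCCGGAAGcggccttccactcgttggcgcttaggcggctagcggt
Ndufs7: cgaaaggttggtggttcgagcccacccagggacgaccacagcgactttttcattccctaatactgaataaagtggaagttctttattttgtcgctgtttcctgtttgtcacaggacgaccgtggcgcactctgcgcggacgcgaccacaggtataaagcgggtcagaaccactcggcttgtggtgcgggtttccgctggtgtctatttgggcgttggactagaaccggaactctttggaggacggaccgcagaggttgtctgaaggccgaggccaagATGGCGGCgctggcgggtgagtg

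Levels were compared between genes only after division by the length of all annotated exons. In WT-TRAMP at 10 weeks the highest level was that of Ndufa1, a small subunit of the proximal membrane arm, with 829 ± 115 normalized counts per kilobase (SD, n = 3). Ndufb9 followed with 640 ± 47.9 and Ndufa4 with 595 ± 46.7. The lowest library of Ndufa1 (696) lay above the highest of Ndufb9 (669), whereas the libraries of Ndufb9 (584 to 669) overlapped those of Ndufa4 (553 to 645). The median over subunits was 211 per kilobase for the core, 222 for the matrix arm accessory subunits, 303 for the proximal and 215 for the distal membrane arm, and 299 for complex II. The assembly factors, which are not part of the finished enzyme, had a median of 42.2 and filled 6 of the 8 lowest places. Of these, Ndufaf6 had the lowest level at 12.9 ± 5.75. Within complex II the flavoprotein Sdha had 438 ± 20.6 and the membrane anchor Sdhd 406 ± 9.23 per kilobase. Ndufa4l2, the paralogue of Ndufa4, was hardly detected, with normalized counts (not per length) of 0 to 2.94 in the libraries at 10 weeks and at most 12.5 at 30 weeks. It was the only gene of the 50 below the minimum mean of 10, which left 49 to be tested. With the longest transcript as the length Ndufb9 ranked above Ndufa1, and 8 of the 10 genes with the highest levels were shared at each age.

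In 10-week KO-TRAMP prostates no complex I or II transcript passed the test. Of the 49 genes, 0 had a limma adjusted p under 0.05 (0.0129% of all genes tested did), 0 had an unadjusted p under 0.05 (3.71% of all genes were higher and 2.93% lower at that level), and edgeR and DESeq2 on the recovered reads also called 0. Their median fold change was -0.03 on the log2 scale, against -0.01 over all genes, and 15 of 49 were above 0 (48.9% of all genes). The groups did not overlap for 4 genes, all lower in KO-TRAMP (6.26% of all genes were lower without overlap and 5.77% higher): the core subunit Ndufv1, which is part of the NADH binding site, the matrix arm subunit Ndufa5 and the assembly factors Ndufaf4 and Ndufaf5. For Ndufaf4 the values were 183, 166 and 144 in WT-TRAMP and 140, 133 and 141 in KO-TRAMP (-0.24, SE 0.15, limma adjusted p 0.805), with all 3 mutant libraries below. The lowest fold change was that of the assembly factor Ndufaf2, with 126, 106 and 106 in WT-TRAMP and 119, 71.5 and 79.9 in KO-TRAMP (-0.35, SE 0.23, limma adjusted p 0.811). Library 7 lay inside the WT-TRAMP range and the other 2 below it. The highest was that of Ndufaf8, at 28.9, 43.7 and 33.0 against 53.9, 44.1 and 39.5 (0.38, SE 0.27, limma adjusted p 0.834). Ndufc2, of the proximal membrane arm, had values of 342, 400 and 326 against 350, 276 and 306 (-0.20, SE 0.14, limma adjusted p 0.833).

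The complex II genes at 10 weeks in KO-TRAMP showed the same lack of separation. Sdha, the flavoprotein that oxidises succinate, was 1903, 1775 and 1742 in WT-TRAMP and 1813, 1740 and 2099 in KO-TRAMP (0.06, SE 0.10). Sdhb was 461, 409 and 416 against 458, 392 and 453 (0.02, SE 0.12). The anchors Sdhc and Sdhd, which bind ubiquinone in the membrane, had fold changes of -0.11 (SE 0.13) and 0.07 (SE 0.11). Sdhc was 510, 555 and 503 against 494, 419 and 550, and Sdhd was 510, 487 and 502 against 553, 465 and 563. All of these values overlapped between the groups, and the limma adjusted p was 0.904 or more for each. Ndufa4, a small protein once counted in complex I and now assigned to cytochrome c oxidase, was 891, 812 and 763 against 915, 551 and 809 (-0.15, SE 0.18, limma adjusted p 0.914), with library 8 alone outside the WT-TRAMP range on the low side.

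In 10-week A537T-TRAMP prostates 0 of 49 genes passed an adjusted p of 0.05 by limma (0.00648% of all genes), by edgeR or by DESeq2, and 1 had an unadjusted p under 0.05, in the lower direction (2.82% of all genes, and 5.07% were higher). The median fold change was -0.05 against -0.01 over all genes, and 11 of 49 were above 0 (49.1% of all genes). The gene with the smallest p was the core subunit Ndufs3, which had 402, 417 and 398 normalized counts in WT-TRAMP and 348, 316 and 303 in A537T-TRAMP. Every A537T-TRAMP library was below every WT-TRAMP library, with a difference of -0.33 (SE 0.13, limma adjusted p 0.600). Without overlap and lower were also Ndufaf2 and Ndufaf7, an arginine methyltransferase that acts during assembly (3 genes in all, 6.53% of all genes), and higher was Ndufb7 (6.92% of all genes). Ndufaf2 was 116, 97.9 and 97.0 against 86.3, 43.1 and 80.3 (-0.62, SE 0.30, limma adjusted p 0.600), the lowest fold change of this comparison. Ndufaf7 was 180, 167 and 152 against 151, 113 and 138 (-0.32, SE 0.18, limma adjusted p 0.607). Ndufb2, of the distal membrane arm, was 288, 268 and 226 against 243, 190 and 154 (-0.43, SE 0.21, limma adjusted p 0.600), with library 4 inside the WT-TRAMP range. The highest fold change was that of Ndufaf6, 0.60 (SE 0.66, limma adjusted p 0.760). It rested on 6.43, 18.4 and 16.2 against 26.9, 33.2 and 8.03 normalized counts, which overlapped.

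Ndufa4 differed more among the A537T-TRAMP mice than between the groups, with 814, 744 and 694 in WT-TRAMP and 846, 348 and 511 in libraries 4, 5 and 6 (-0.49, SE 0.30, limma adjusted p 0.617). The complex II genes were closer together. Sdha was 1717, 1604 and 1567 against 1572, 1574 and 1286 (-0.15, SE 0.13). Sdhb was 423, 375 and 381 against 448, 397 and 370 (0.04, SE 0.14). Both overlapped between the groups. Sdhc was 471, 514 and 463 against 420, 494 and 357 (-0.20, SE 0.16), and Sdhd was 450, 429 and 441 against 498, 454 and 367 (-0.01, SE 0.15). The limma adjusted p of the 4 genes was 0.672 or more.

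At 30 weeks no transcript of either complex passed the adjusted threshold in limma in KO-TRAMP, although most fold changes were above 0, unevenly between the mice. The fold change was above 0 for 46 of 49 genes (50.9% of all genes tested), with a median of 0.36 against 0.01 over all genes. All 3 KO-TRAMP libraries lay above all 3 WT-TRAMP libraries for 20 genes (10.8% of all genes) and below for 0 (9.48% of all genes). In limma 17 genes had an unadjusted p under 0.05, all higher (7.70% of all genes), but 0 passed the adjusted threshold, as did 0.213% of all genes. On the recovered reads edgeR also called 0, and DESeq2 called Ndufb7 alone, 1 of 49, where it called 4.76% of all genes. The fold changes ran from -0.10 for Ndufs7 to 1.49 for Ndufb7. The KO-TRAMP libraries were far from even. The mean log2 level of the 49 genes was 0.10 above the WT-TRAMP mean in library 16, 0.61 above it in library 17 and 0.37 above it in library 18, while the WT-TRAMP libraries stayed between -0.02 and 0.02. The mean over all genes tested was -0.16, 0.20 and 0.19 in the same 3 libraries, and between -0.16 and 0.12 in WT-TRAMP.

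Of the roles with several genes, the distal membrane arm had the highest median. All 10 distal subunits had fold changes above 0 with a median of 0.43, and 7 of them did not overlap between the groups. For the counts without overlap in each role, the share over all genes was 10.8% higher and 9.48% lower. All 9 proximal subunits (median 0.36, 4 without overlap) and all 9 matrix arm accessory subunits (median 0.36, 5 without overlap) were above 0 as well. Of the 7 core subunits, which carry the flavin and the iron-sulphur clusters, 5 were above 0, with a median of 0.15 and 1 without overlap. The 8 assembly factors had a median of 0.38 but only 1 without overlap, and the 4 complex II genes a median of 0.23 with 1 without overlap. No difference between roles was tested. In A537T-TRAMP at the same age the medians were 0.03 for the core, 0.08 for the matrix arm, 0.16 for the proximal and 0.18 for the distal membrane arm, 0.20 for the assembly factors and -0.03 for complex II; the control mice are shared with the KO-TRAMP comparison.

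**Figure D1:**
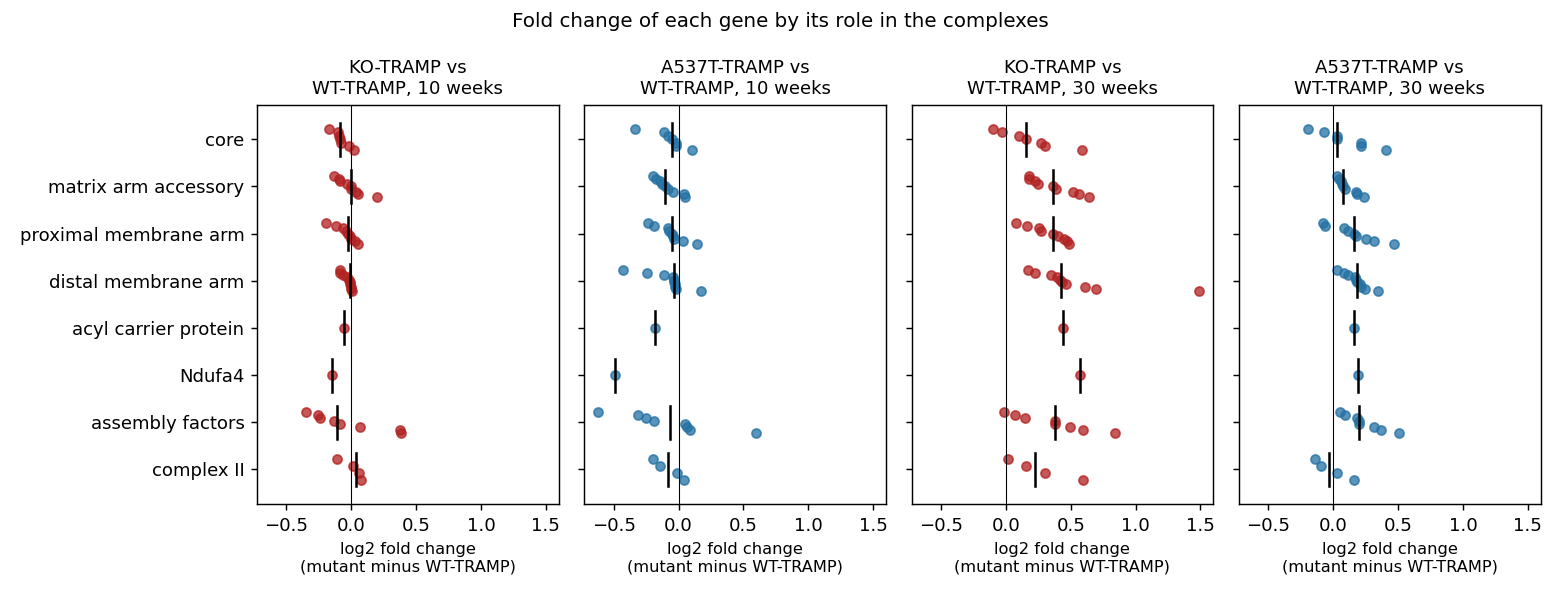
Each point is a gene, placed by its log2 fold change (mutant minus WT-TRAMP, x axis) and by its role in the complexes (y axis), with a black bar at the median of the role, in the 4 comparisons. At 10 weeks the points lie on both sides of 0, and in 30-week KO-TRAMP 46 of 49 lie above 0, with Ndufb7 furthest out at 1.49.

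The values of single genes show what these counts rest on. Ndufb7 (chromosome 8, plus strand), a distal membrane arm subunit held together by disulphide bonds on the side of the intermembrane space, was 302, 221 and 299 in WT-TRAMP and 300, 1496 and 994 in KO-TRAMP libraries 16, 17 and 18. Library 16 sat inside the WT-TRAMP range while the other 2 were far above it, and the mean was 3.40 times that of WT-TRAMP (1.49, SE 0.58, limma adjusted p 0.364, DESeq2 adjusted p 0.0318). Only 0.243% of the 31-base words of Ndufb7 occur in any other single gene. Ndufa8, of the proximal membrane arm, differed little among mice: 280, 345 and 305 in WT-TRAMP and 425, 453 and 408 in KO-TRAMP (0.47, SE 0.13, limma adjusted p 0.323). All 3 KO-TRAMP libraries were above WT-TRAMP, library 16 included. Ndufv3, a matrix arm accessory subunit beside the NADH binding site, was 394, 440 and 442 against 542, 838 and 637 (0.64, SE 0.18, limma adjusted p 0.327). Ndufa3, of the proximal membrane arm, was 275, 321 and 263 against 391, 369 and 371 (0.40, SE 0.13, limma adjusted p 0.332). These 3 genes and Ndufa4 had the smallest p-values. Ndufa4 was 679, 702 and 637 against 794, 1224 and 1026 (0.57, SE 0.17, limma adjusted p 0.327).

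The core subunits had the lowest median of the roles, with fold changes from -0.10 (Ndufs7) to 0.58 (Ndufs8). Ndufs8, which carries iron-sulphur clusters next to the quinone site, was 175, 214 and 193 in WT-TRAMP and 218, 354 and 316 in KO-TRAMP (0.58, SE 0.22, limma adjusted p 0.358), the only core subunit without overlap. Ndufs7, whose cluster is the last before ubiquinone, was 188, 202 and 162 against 168, 173 and 171 (-0.10, SE 0.15, limma adjusted p 0.734). Its 3 KO-TRAMP libraries were close together inside the WT-TRAMP range. Ndufs3 (403, 504 and 439 against 412, 493 and 410) also stayed inside it, at -0.03 (SE 0.14). Among the assembly factors Ndufaf3, which binds the early matrix arm module, was 116, 109 and 122 in WT-TRAMP but 71.0, 298 and 206 in libraries 16, 17 and 18. Library 16 was below every WT-TRAMP library and libraries 17 and 18 above (0.49, SE 0.51, limma adjusted p 0.632).

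The complex II genes lay at different distances from WT-TRAMP. Sdhd was 525, 522 and 570 in WT-TRAMP and 614, 1034 and 852 in KO-TRAMP, without overlap (0.60, SE 0.20, limma adjusted p 0.343). Sdhb was 477, 459 and 449 against 423, 738 and 587 (0.30, SE 0.21, limma adjusted p 0.502), with library 16 below WT-TRAMP and the others above. Sdhc, the other anchor, was 572, 599 and 442 against 576, 668 and 544 (0.16, SE 0.16, limma adjusted p 0.627). Sdha was 1854, 2209 and 2112 against 2095, 2225 and 1933 (0.02, SE 0.11, limma adjusted p 0.934), and the groups overlapped. The enzyme holds its 4 subunits in equal number, and the means of their transcripts were 1.01 (Sdha), 1.26 (Sdhb), 1.11 (Sdhc) and 1.55 (Sdhd) times those of WT-TRAMP.

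**Figure D2:**
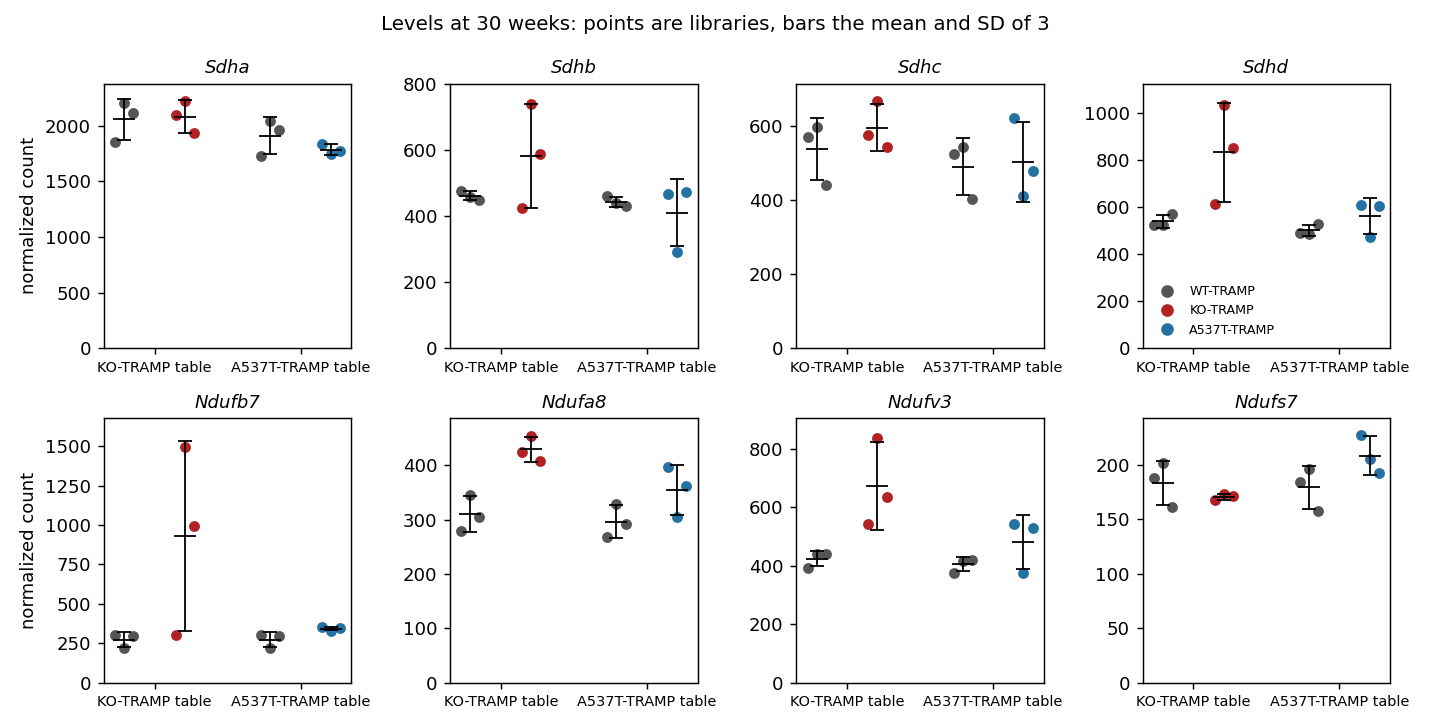
Normalized counts (y axis, from 0) at 30 weeks of the 4 complex II genes and of Ndufb7, Ndufa8, Ndufv3 and Ndufs7, in WT-TRAMP, KO-TRAMP and A537T-TRAMP; points are libraries, and bars give the mean and SD of 3. Ndufb7 reached 1496 and 994 in 2 KO-TRAMP libraries and 300 in the other, whereas Sdha overlapped between the groups.

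Library 16 stood apart from libraries 17 and 18 across these genes. Of the 49 genes, 44 lay above every WT-TRAMP library in library 17 and 0 below (41.2% and 36.7% of all genes tested), and 40 lay above and 1 below in library 18 (36.3% and 32.5%). In library 16, 23 lay above and 7 below (26.4% and 27.6%). Markers of some other cells moved with this split, and others with the group. Of 10 neuroendocrine markers, 9 in library 17 and 10 in library 18 were above every WT-TRAMP library, and 0 in library 16; their summed normalized counts were 17235, 10812 and 12.3 respectively, against 7.68 to 1533 in WT-TRAMP. The 10 proliferation genes summed to 31650 and 22443 in libraries 17 and 18 and to 9879 in library 16 (10232 to 16760 in WT-TRAMP). In the same order, 6 endothelial markers summed to 3335, 2272 and 677 (409 to 519), and 5 basal epithelial markers to 2340, 1664 and 411 (393 to 423). The basal markers were divided: 3, 4 and 1 of them lay above every WT-TRAMP library in libraries 17, 18 and 16, and 2, 1 and 2 below. Fibroblast markers were high in all 3, at 22616 in library 16, 16884 in library 17 and 19184 in library 18 against 4363 to 4937, with 6 of 7 above every WT-TRAMP library in all 3. Macrophage markers behaved alike, at 3010, 2314 and 2751 against 1085 to 1350, also with 6 of 7 above in all 3. Erythrocyte markers were at 282, 585 and 441 against 179 to 189, with 1 of 5 above in all 3. White adipose markers were at 236, 714 and 524 against 751 to 1727. Smooth muscle markers summed to 7885, 38490 and 26798 (15484 to 26783 in WT-TRAMP) and skeletal muscle markers, from a tissue rich in mitochondria, to 614, 1166 and 948 (428 to 696), while brown adipose markers were at 179, 270 and 176 (276 to 648). The 11 luminal epithelial markers, which define the epithelium in which Elac2 was deleted, summed to 33417 to 39362 against 32417 to 44147 in WT-TRAMP. None of these lists had a marker at 0 in all WT-TRAMP libraries at 30 weeks. Their part in the result was not tested, and in such bulk samples fewer cells of a type and less RNA per cell cannot be told apart.

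**Figure D3:**
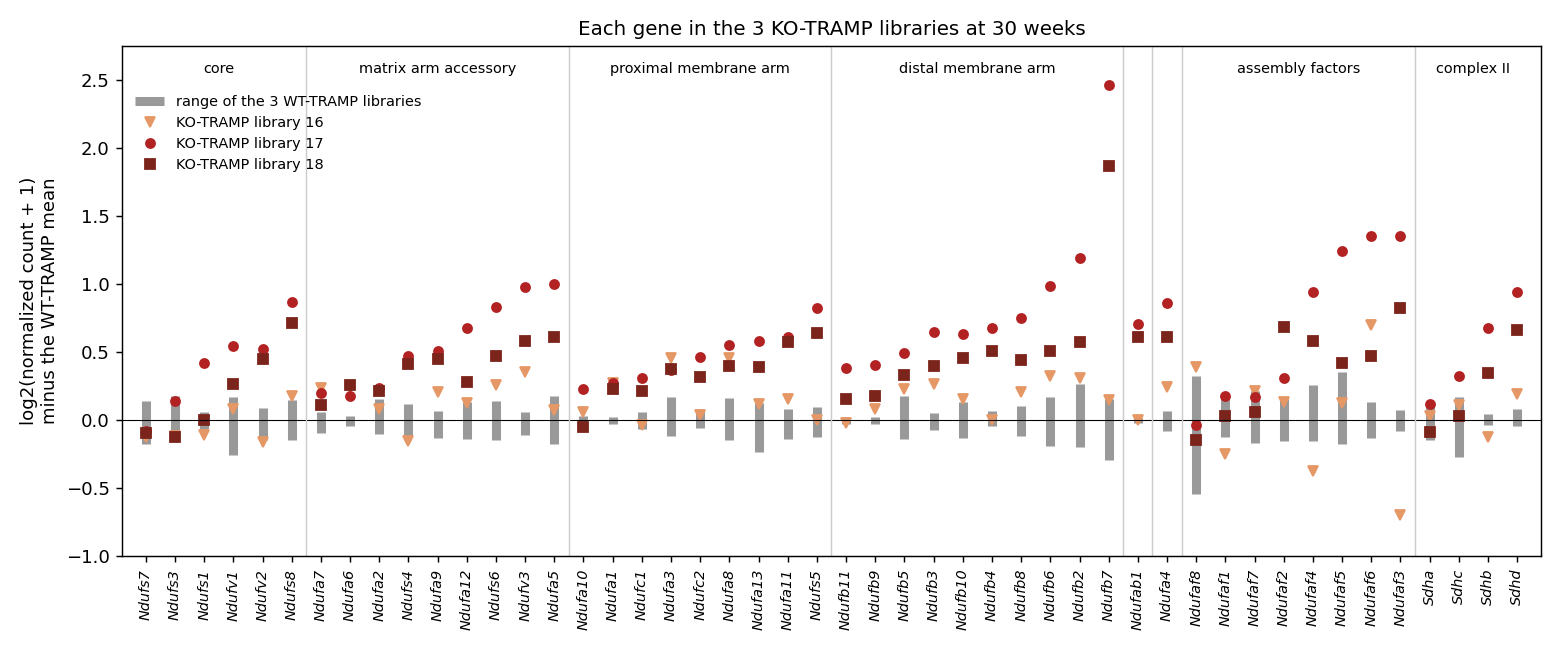
Each column is a gene, ordered by role; the y axis gives its log2(normalized count + 1) minus the WT-TRAMP mean in the 3 KO-TRAMP libraries at 30 weeks, and grey bars span the 3 WT-TRAMP libraries. Of the 49 genes tested, of which 1 is not drawn, library 17 (circles) is above the grey bar for 44, library 18 (squares) for 40 and library 16 (triangles) for 23.

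Without library 16, a choice made after these values were seen, 15 of 49 genes passed an adjusted p of 0.05 in limma, all higher (11.1% of all genes were called higher and 6.75% lower), 13 did in edgeR and 15 with TMM scaling. The fit then compares 2 KO-TRAMP mice with 3 WT-TRAMP mice. The 15 were the core subunits Ndufs8 and Ndufv2; Ndufa5, Ndufa9 and Ndufv3 of the matrix arm; Ndufa11 and Ndufs5 of the proximal and Ndufb4, Ndufb7, Ndufb8 and Ndufb10 of the distal membrane arm; Ndufab1, Ndufa4, Ndufaf3 and Sdhd. Ndufb7 was 2.17 higher (SE 0.23, limma adjusted p 0.00917). Ndufaf3 was 1.09 higher (SE 0.21, limma adjusted p 0.0299) and Sdhd 0.80 higher (SE 0.12, limma adjusted p 0.0195). The acyl carrier protein Ndufab1, which serves both complex I and mitochondrial fatty acid synthesis, was 0.66 higher (SE 0.11, limma adjusted p 0.0205); with all 3 mice it had been 0.44 (SE 0.20, limma adjusted p 0.388). Sdhb, at 0.51 (SE 0.13), just missed the threshold in limma (adjusted p 0.0529). With any other single library left out, 0 of the 49 genes passed.

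In 30-week A537T-TRAMP prostates the fold change was above 0 for 43 of 49 genes (50.0% of all genes), with a median of 0.16 against 0.0002 over all genes. By limma 0 genes passed the adjusted threshold (0% of all genes), as with edgeR and DESeq2, and 1 had an unadjusted p under 0.05, in the higher direction (3.98% of all genes, and 3.23% were lower). This was Ndufa3, with 256, 295 and 243 normalized counts in WT-TRAMP and 360, 361 and 376 in A537T-TRAMP. The 3 mutant libraries were close to each other and above every WT-TRAMP library (0.47, SE 0.12, limma adjusted p 0.504). Ndufa3, Ndufab1, Ndufb7 and Ndufb11 were the 4 genes without overlap, all higher (7.36% of all genes), and 0 were lower without overlap (6.03% of all genes). Ndufb7 was 304, 220 and 298 against 356, 332 and 346 (0.35, SE 0.15, limma adjusted p 0.701), far below its values in KO-TRAMP libraries 17 and 18. Ndufb11, an X-linked subunit of the distal arm, was 487, 480 and 466 against 598, 519 and 548 (0.21, SE 0.10, limma adjusted p 0.703). Ndufs8 was 165, 201 and 181 against 299, 199 and 238 (0.41, SE 0.18, limma adjusted p 0.698), with library 14 inside the WT-TRAMP range. The highest fold change was that of Ndufaf8, at 47.4, 26.0 and 43.7 against 50.8, 68.0 and 45.9 (0.51, SE 0.31, limma adjusted p 0.756).

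The lowest was that of Ndufs1, the largest core subunit, which holds several iron-sulphur clusters: 761, 783 and 715 in WT-TRAMP and 742, 565 and 682 in A537T-TRAMP (-0.19, SE 0.12, limma adjusted p 0.767). Complex II stayed around WT-TRAMP. Sdha was 1733, 2048 and 1960 against 1841, 1751 and 1770 (-0.10, SE 0.09), and Sdhb was 459, 439 and 429 against 465, 292 and 472 (-0.14, SE 0.19). Library 14 was the lowest of the A537T-TRAMP libraries for both. Sdhc was 524, 544 and 402 against 622, 410 and 478 (0.03, SE 0.19), and Sdhd was 490, 484 and 529 against 609, 472 and 605 (0.16, SE 0.13). Ndufa4 was 640, 656 and 594 against 923, 498 and 801 (0.19, SE 0.22), with libraries 13 and 15 above WT-TRAMP and library 14 below. The limma adjusted p was 0.808 or more for each of these 5 genes.

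Across all 4 comparisons the genes of a library tended to shift together, and in different directions in mice of the same group. At 10 weeks 41 of 49 lay below every WT-TRAMP library in KO-TRAMP library 8 (30.7% of all genes) against 8 in library 7 (22.6%). In A537T-TRAMP, 41 lay below in library 6 (32.9% of all genes) and 31 in library 5 (36.6%), but 35 lay above in library 4 (25.3%). At 30 weeks 41 lay above in A537T-TRAMP library 13 (29.5%) and 37 in library 15 (26.5%), and 22 below in library 14 (26.5%). The mean log2 level of the 49 genes, relative to WT-TRAMP, was 0.18, -0.18 and -0.25 in libraries 4, 5 and 6, and 0.10, -0.21 and 0.01 in libraries 7, 8 and 9. It was 0.27, -0.06 and 0.21 in libraries 13, 14 and 15. The WT-TRAMP libraries stayed within 0.0619 of their mean in every table. The 3 mice of a mutant group were therefore further apart than the group means at 10 weeks.

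**Figure D4:**
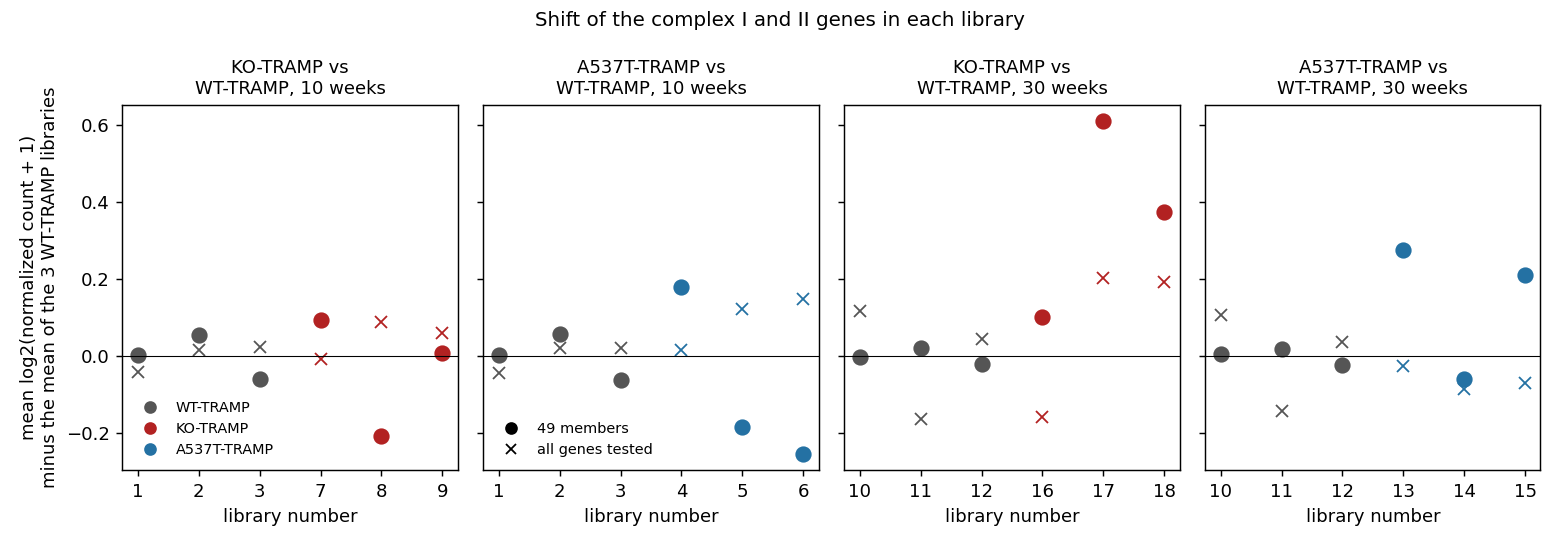
For each library (x axis, by number) circles give the mean log2(normalized count + 1) of the 49 genes, and crosses that of all genes tested, minus the mean of the 3 WT-TRAMP libraries of the table. The circles of the WT-TRAMP libraries stay within 0.0619 of 0, those of the mutant libraries run from -0.25 (library 6) to 0.61 (library 17), and they differ within each mutant group.

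Markers of other tissue also differed between mice of a group at 10 weeks. The 8 seminal vesicle markers summed to 5025, 1156560 and 135158 normalized counts in A537T-TRAMP libraries 4, 5 and 6, all 8 above every WT-TRAMP library (19.3 to 49.5, with 1 marker at 0 in all 3), although the methods state that the seminal vesicles were removed. In KO-TRAMP libraries 7, 8 and 9 they summed to 99.8, 5937 and 180136 against 21.0 to 54.0, with 4 of 8 above WT-TRAMP in every library. The 10 proliferation genes summed to 14090, 7947 and 8886 in libraries 4, 5 and 6 (10311 to 14375 in WT-TRAMP) and to 14722, 10787 and 11870 in libraries 7, 8 and 9 (11589 to 16068), and smooth muscle markers to 10630, 30079 and 16384 in libraries 4, 5 and 6 (4239 to 7136). In libraries 7, 8 and 9 smooth muscle markers summed to 8564, 13543 and 12431 (4766 to 8009). The 11 luminal epithelial markers summed to 66745, 27185 and 47154.5 in libraries 4, 5 and 6 (53232 to 64547). Of these markers, 2, 7 and 6 were below every WT-TRAMP library and 4, 1 and 3 above. They summed to 53475.5, 50723 and 48518 in libraries 7, 8 and 9 (59629 to 71881), with 3, 6 and 3 below and 1, 2 and 1 above. At 30 weeks seminal vesicle markers ranged from 12.5 to 496832 among the WT-TRAMP libraries themselves and were 626736, 35.8 and 291957 in libraries 13, 14 and 15. In those 3 libraries, proliferation genes summed to 9887, 14675 and 13385 against 9439 to 15513, and neuroendocrine markers to 121, 157 and 26.9 against 7.17 to 1423. Fibroblast markers summed to 11214, 6736 and 8769 against 4160 to 4713. Smooth muscle markers summed to 32901, 10534 and 22325 against 14470 to 25245. Of these 8 markers, 6 in library 13 were above every WT-TRAMP library and 7 in library 14 below. Endothelial markers were at 842, 368 and 585 against 383 to 498, and erythrocyte markers at 391, 138 and 255 against 172 to 183. White adipose markers were at 430, 219 and 265 against 709 to 1616, with all 8 below every WT-TRAMP library in each, and 6 of 8 brown adipose markers were below in each (143 to 154 against 261 to 604). Their part in the shifts was not tested.

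The subunits encoded by mitochondrial DNA often lay on the other side of WT-TRAMP from the nuclear ones. The tables list them as 6 features, with the bicistronic mt-Nd4l and mt-Nd4 transcript as a single feature. Their sum was 1.61 to 1.96 times that of the 36 nuclear subunits in 30-week WT-TRAMP, and 1.67, 0.876 and 1.10 times in KO-TRAMP libraries 16, 17 and 18. In libraries 17 and 18 the nuclear sums were 21002 and 17804, above the 13560 to 14203 of WT-TRAMP, and the mitochondrial sums 18395 and 19605, below the 21894 to 27865 of WT-TRAMP. At 10 weeks the ratio was 1.69 to 2.10 in WT-TRAMP of the A537T-TRAMP table and 1.14, 3.43 and 2.86 in libraries 4, 5 and 6, so that library 4, with the highest nuclear sum, had the lowest mitochondrial sum. In the KO-TRAMP table it was 1.74 to 2.15 in WT-TRAMP and 1.46, 2.84 and 2.06 in libraries 7, 8 and 9. At 30 weeks A537T-TRAMP libraries 13, 14 and 15 had ratios of 1.11, 1.85 and 1.44 against 1.58 to 1.92. Sums within a table share size factors, and no test was made of this pattern.

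**Figure D5:**
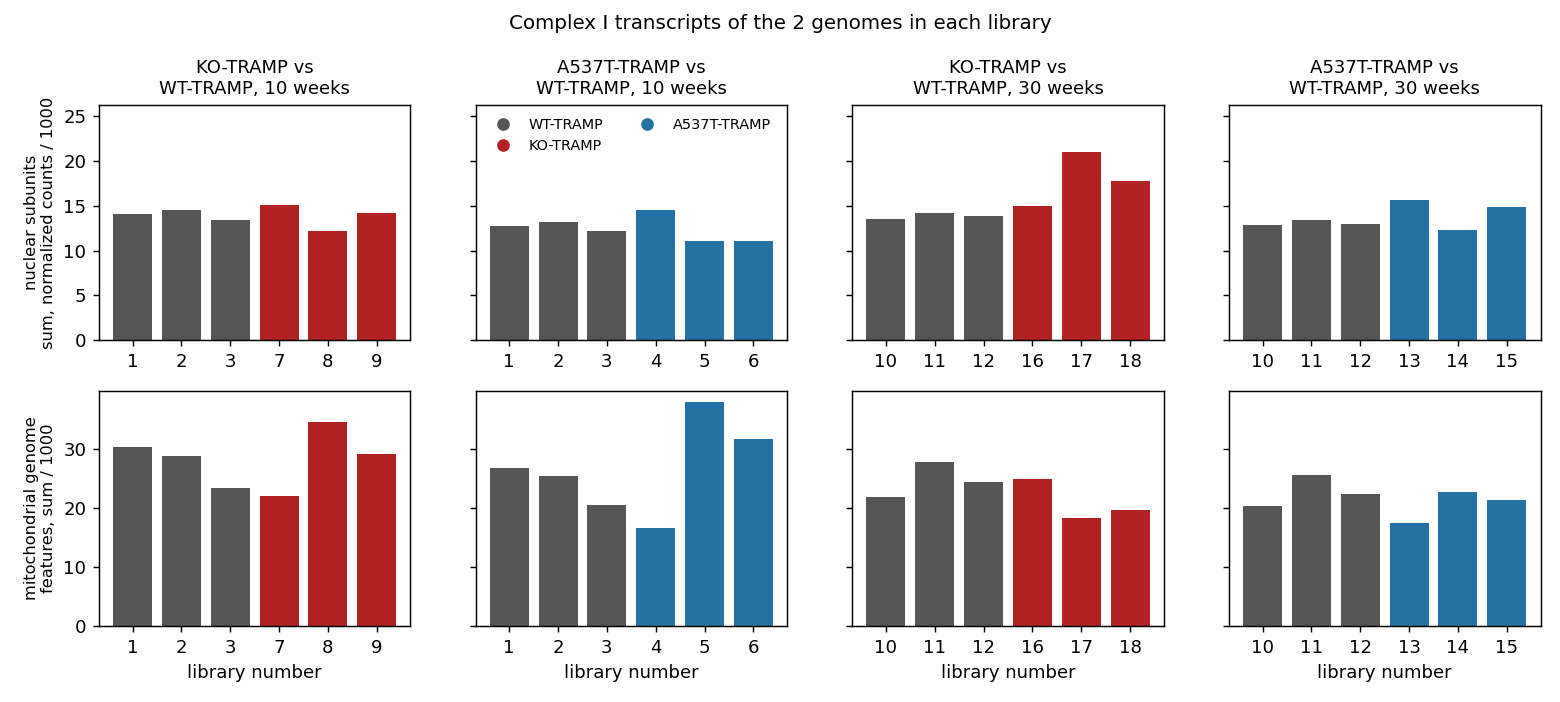
Bars give, for each library (x axis, by number), the sum of normalized counts, divided by 1000, of the 36 nuclear complex I subunits (upper row) and of the 6 mitochondrial features (lower row). In libraries 8, 5 and 6 the upper bar is below and the lower bar above every WT-TRAMP library of the table, and in libraries 7, 4, 17, 18 and 13 the reverse; libraries 9, 16, 14 and 15 show neither.

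By limma none of the 6 mitochondrial features had an unadjusted or adjusted p under 0.05 in any of the 4 comparisons with WT-TRAMP. In 30-week KO-TRAMP their median fold change was -0.30 and 2 of 6 were above 0. The features lay on both sides of WT-TRAMP. mt-Nd5 was 4464, 6187 and 5376 in WT-TRAMP and 5201, 2164 and 3163 in libraries 16, 17 and 18 (-0.69, SE 0.32, limma adjusted p 0.394), while mt-Nd3 was 2146, 1979 and 2011 against 2022, 3800 and 3047 (0.48, SE 0.23, limma adjusted p 0.397). mt-Nd1 was 6507, 7341 and 6730 against 7136, 7453 and 7001 (0.07, SE 0.10). Without library 16, mt-Nd5 (-1.02), the mt-Nd4l and mt-Nd4 feature (-0.98) and mt-Nd2 (-0.70) were called lower in limma and mt-Nd3 (0.74) higher, with adjusted p-values of 0.0346, 0.0323, 0.0385 and 0.0220. In that fit 11.1% of all genes were called higher and 6.75% lower. It holds 2 KO-TRAMP mice and was chosen after the values were seen.

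The effects at 30 and at 10 weeks were compared within each line. In KO-TRAMP the difference was above 0 for 45 of 49 genes (49.6% of all genes), with a median of 0.39 against -0.004 over all genes. In limma 12 had an unadjusted p under 0.05, all towards a higher effect at 30 weeks (6.40% of all genes, and 7.07% the other way), and 0 passed the adjusted threshold (0% of all genes). The smallest p was that of Ndufa8 (0.59, SE 0.17, limma adjusted p 0.255), followed by Ndufv3 (0.60, SE 0.20, limma adjusted p 0.293), Ndufs8 (0.76, SE 0.26, limma adjusted p 0.295) and Ndufb6, of the distal arm (0.67, SE 0.25, limma adjusted p 0.316). The differences ran from -0.31 for Ndufaf8 to 1.49 for Ndufb7. Of the complex II genes, Sdhd had the largest difference (0.53, SE 0.23, limma adjusted p 0.360) and Sdha the smallest (-0.04, SE 0.15). Without library 16, 9 genes passed, all higher (6.38% of all genes were called higher and 5.19% lower), with Ndufb7 at 2.17. In A537T-TRAMP the difference was above 0 for 45 of 49 genes (51.6% of all genes), with a median of 0.21 against 0.01 over all genes. There 1 gene had an unadjusted p under 0.05 in limma, also towards a higher effect (2.70% of all genes, and 3.38% the other way), and 0 passed (0% of all genes). It was Ndufaf2 (0.93, SE 0.39, limma adjusted p 0.738), which had been the lowest gene at 10 weeks and was 80.1, 90.6 and 71.5 in WT-TRAMP against 122, 73.9 and 111 in A537T-TRAMP at 30 weeks. Ndufb2 followed (0.60, SE 0.28), then Ndufa8 (0.44, SE 0.24) and Ndufa3 (0.33, SE 0.18), each with a limma adjusted p of 0.738, and the lowest was Ndufaf6 (-0.40, SE 0.77).

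Genes outside the 2 complexes put these values in context. Of the nuclear subunits of complexes III, IV and V, 32 of 32 tested had a fold change above 0 in 30-week KO-TRAMP with a median of 0.44, 24 had an unadjusted p under 0.05 in limma (7.70% of all genes were higher at that level) and 26 did not overlap (10.8% of all genes), all higher, but 0 passed the adjusted threshold. Without library 16, 20 passed, all higher (11.1% of all genes). In A537T-TRAMP at 30 weeks 31 of 32 were above 0 with a median of 0.16, and at 10 weeks 8 of 32 in KO-TRAMP and 5 of 32 in A537T-TRAMP. The other tricarboxylic acid cycle enzymes, among which succinate dehydrogenase works, had a median of 0.16 in 30-week KO-TRAMP with 11 of 13 above 0 and 0 at an unadjusted p under 0.05. The 15 assembly factors without an Nduf symbol had a median of 0.14, with 11 above 0 and only Tmem126a at an unadjusted limma p under 0.05 (0.52). Regulators of mitochondrial biogenesis and outer membrane proteins had a median of 0.04 with 9 of 14 above 0. Among 12 genes of the NADH shuttles and of other enzymes that reduce ubiquinone, 4 had an unadjusted limma p under 0.05, all lower (5.84% of all genes), and 0 passed. The smallest p was that of Prodh, proline dehydrogenase, with a fold change of -1.23. In all comparisons 0 genes of these lists passed the adjusted threshold in limma with all libraries.

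Short transcripts lay higher at 30 weeks over all genes. Of protein-coding genes whose longest transcript had at most 1232 bases, the median of the genes studied here, 918 were tested in 30-week KO-TRAMP with a median fold change of 0.24, against 0.03 for longer genes. The genes of complexes I and II had medians of 0.41 up to that length and 0.35 above it. In 30-week A537T-TRAMP the medians were 0.19 and 0.09 for these genes, against 0.14 and 0.01 for protein-coding genes of the same length classes. Spearman's rho between fold change and length over the 49 genes was -0.03 in 30-week KO-TRAMP and -0.33 in 30-week A537T-TRAMP, against -0.14 and -0.23 over all protein-coding genes tested. These are correlations across genes of the same libraries, and genes are not independent replicates. The part of transcript length in the fold changes was not tested.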

How the data were processed

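Total RNA of 18 mouse prostate samples had been sequenced. Per the labels and methods, the authors used Trim Galore 0.4.1 and cutadapt 1.18 for trimming, aligned reads with STAR 2.7.3a to GRCm38.p6 masked for nuclear copies of mitochondrial sequence, quantified genes with Salmon using strand, and used DESeq2 1.26. They deposited 4 tables of normalized counts, a signal that equals the estimated reads divided by 1 size factor per library, and 4 tables of their own comparisons (fold changes and significance values), which were not used. Each table holds 3 WT-TRAMP and 3 mutant libraries of an age. Column headers give a library number, a flow cell and index sequences but no group: the 3 columns shared by both tables of an age were taken as WT-TRAMP. Dividing a column by its smallest step gave whole reads for 100% of genes (within 0.01 reads), and these recovered reads entered the count tests.

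Symbols and coordinates came from a GENCODE annotation of GRCm38 that is older than the authors' one. Of 55469 gene IDs, 55228 had a symbol. At most 26.5% of the 31-base words of any gene studied here occur in another single gene.

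Lines were compared with limma 3.58.1 in R 4.3.3 (lmFit, eBayes with trend, two-sided) on log2(normalized count + 1), which understates changes of low genes, over genes with a mean of at least 10, Benjamini-Hochberg adjusted at 0.05. The difference between ages was an interaction over 12 libraries with an intercept per table. Alternatives were edgeR 4.0.16 and DESeq2 1.42.0 on recovered reads, TMM scaling, array weights, other pseudocounts and filters, and leaving out each library; edgeR and TMM scaling without library 16 were added after the data were seen. The main limma comparisons with WT-TRAMP were tested on simulated counts with known changes. The age differences and the alternatives were not. The genes, lists and tests were chosen with earlier results of these data known.

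Genes were named by rule: Elac2, the Sdh genes and Ndufa4, and per comparison the genes past the threshold, or else the 4 with the smallest p, with the highest and lowest fold change. Genes named beside a count of 5 or fewer, the core subunits Ndufs3 and Ndufs8, Ndufaf3, Ndufab1 and the mitochondrial features at 30 weeks were named after their values were seen. Of the genes, 1 enters the counts and medians but is not reported by itself here.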

Additional observations from a re-analysis of the deposited data

Results flagged for a closer look

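Ndufs7 lay on opposite sides of the WT-TRAMP mean in the 2 mutant lines at 30 weeks: all 3 KO-TRAMP libraries were below it (fold change -0.10 on the log2 scale) and all 3 A537T-TRAMP libraries above it (0.22, with 228, 205 and 192 normalized counts against 184, 196 and 158). The lines share their WT-TRAMP mice, and the difference between them was not tested.

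Genes named like complex I subunits but not annotated as protein coding also carried signal. Ndufb1-ps, annotated as a non-coding RNA where RefSeq lists the protein-coding subunit Ndufb1, was 255, 263 and 267 in WT-TRAMP and 318, 625 and 487 in 30-week KO-TRAMP, without overlap (0.81, SE 0.25, limma adjusted p 0.332). The pseudogene Ndufb4c, in which 19.1% of the 31-base words of the longer subunit gene Ndufb4 also occur, so that reads of the pair may not have been told apart, was 15.7, 27.8 and 23.9 against 36.0, 59.8 and 47.0 in 30-week KO-TRAMP (1.06, SE 0.36, limma adjusted p 0.343) and 14.8, 26.0 and 22.4 against 35.2, 26.2 and 38.9 in 30-week A537T-TRAMP (0.66, SE 0.34, limma adjusted p 0.721).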

How the results depend on the processing

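No gene passed the adjusted threshold in any comparison with all libraries and limma, and this count stayed at 0 under the other pseudocounts, minimum means of 1 or none and limma without trend, and in the 4 comparisons with WT-TRAMP also under a minimum mean of 50, TMM scaling and edgeR, which were not run for the age differences. In 30-week KO-TRAMP DESeq2 called 1 gene, array weights 38, edgeR without library 16 called 13 and TMM scaling without library 16 called 15; leaving out single libraries gave 0 to 15. Array weights called 16 in 30-week A537T-TRAMP, 25 in the KO-TRAMP age difference (0 to 9 when single libraries were left out) and 9 in the A537T-TRAMP age difference, whose median became 0.39. The weights did not converge in these 4 fits: library 18 had 170 times unit weight in 30-week KO-TRAMP and 1782 in the KO-TRAMP age difference, so that these counts rest on that library or on few others. Over all genes, array weights called 10748 of 16900 (63.6%) in 30-week KO-TRAMP, 3388 of 16261 (20.8%) in 30-week A537T-TRAMP, 4668 of 15252 (30.6%) in the KO-TRAMP and 1573 of 15242 (10.3%) in the A537T-TRAMP age difference. In the 30-week KO-TRAMP comparison limma called 36 genes, DESeq2 805, edgeR 15, and without library 16 limma called 3011, edgeR 2862 and limma with TMM scaling 3030; without library 10, 12 or 18 it called 0, without library 11 it called 2 and without library 17 it called 13. Medians kept their direction in both 30-week comparisons and both age differences (0.25 to 0.48 in KO-TRAMP and 0.09 to 0.24 in A537T-TRAMP when single libraries were left out) and ran from -0.12 to 0.07 and from -0.21 to 0.003 at 10 weeks.

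With array weights the fold change turned for Ndufaf6 (-0.27) and Sdhb (-0.019) in 10-week A537T-TRAMP, Ndufs7 (0.0072) and Sdha (-0.11) in 30-week KO-TRAMP, Sdhb (0.087) in 30-week A537T-TRAMP and Ndufaf6 (0.90) in the A537T-TRAMP age difference; that of Sdhd in 10-week A537T-TRAMP turned in edgeR (0.015) and DESeq2 (0.0057). Leaving out single libraries turned small values: in 10-week KO-TRAMP Sdha (-0.023 to 0.11), Sdhb (-0.023 to 0.089) and Ndufa4 (-0.30 to 0.069); in 10-week A537T-TRAMP Sdhb (-0.034 to 0.10), Sdhd (-0.11 to 0.11) and Elac2 (-0.19 to 0.0064); in 30-week KO-TRAMP Sdha (-0.054 to 0.072); in 30-week A537T-TRAMP Sdhb (-0.26 to 0.085), Sdhc (-0.13 to 0.17) and Elac2 (-0.059 to 0.11); and Ndufaf6 in the A537T-TRAMP age difference (-0.99 to 0.032). Other causes of these changes were not tested. No paired analysis was possible because the table columns carry no replicate numbers of the labels.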
